A study of Mus musculus with 18 samples.

Results

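The retinal ganglion cell fate factors are 10 genes, chosen by name: Atoh7, Pou4f1, Pou4f2, Pou4f3, Isl1, Ebf1, Ebf2, Ebf3, Rbpms and Sncg. All 10 had a row in both expression tables, the larger of which held 34396 genes. The mRNA came from EGFP-positive cells that had been sorted from retinal explants of ICR mice, an outbred stock. The retinas had been electroporated on postnatal day 0.5 and cultured for 3 days. In 1 table, cells with a plasmid for Nmnat1 knockdown or Nmnat2 knockdown were set against cells with a scramble plasmid, and in the other, cells overexpressing Nmnat1 or Nmnat2 from a plasmid against empty-vector cells. There were 6 groups with 3 libraries each, and every group also received the EGFP plasmid used for sorting. Nmnat1 and Nmnat2 encode enzymes that make NAD, in the nucleus and at the Golgi apparatus. The sorted population is a mixture of whatever cell types took up the plasmids, so that a lower level can mean fewer cells of a type or less RNA per cell, which cannot be told apart in bulk RNA.

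Atoh7 encodes a basic helix-loop-helix (bHLH) factor that makes retinal progenitors competent to become ganglion cells, the output neurons of the retina. Isl1, a LIM-homeodomain factor, and Pou4f2, a POU-domain factor, act downstream of it to start the ganglion cell programme, together with the related Pou4f1 and Pou4f3. The early B-cell factors Ebf1, Ebf2 and Ebf3 are helix-loop-helix factors that act in ganglion cell differentiation. Rbpms, an RNA-binding protein, and Sncg, gamma-synuclein, mark mature ganglion cells. In the mouse almost all ganglion cells are born before birth, and progenitors reached by electroporation of the newborn retina make mainly rods, bipolar cells, amacrine cells and Müller glia. Several of the factors are also made by those cells: Ebf1 and Ebf3 by amacrine and bipolar cells, Isl1 by bipolar cells and cholinergic amacrine cells, and Atoh7 by progenitors and newborn cells.

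Promoter windows of 300 bases, from 250 before to 50 after a gene's start, were taken from RefSeq on GRCm38.p6. Those of Ebf3 and Ebf1 are shown because the levels of both genes did not overlap between Nmnat1 knockdown and scramble libraries, or between either overexpression group and the empty vector. Those of Isl1 and Atoh7 are shown because the 2 genes are the regulators above them in the programme. Each is printed 5′ to 3′ on the gene's strand. Capitals mark every match to CANNTG, the E-box bound by bHLH factors such as Atoh7, and to CCCNNGGG, the core of the site bound by early B-cell factors. Both patterns are their own reverse complement, so that 1 strand covers both.
Ebf3, chr7:137314396-137314695, minus strand: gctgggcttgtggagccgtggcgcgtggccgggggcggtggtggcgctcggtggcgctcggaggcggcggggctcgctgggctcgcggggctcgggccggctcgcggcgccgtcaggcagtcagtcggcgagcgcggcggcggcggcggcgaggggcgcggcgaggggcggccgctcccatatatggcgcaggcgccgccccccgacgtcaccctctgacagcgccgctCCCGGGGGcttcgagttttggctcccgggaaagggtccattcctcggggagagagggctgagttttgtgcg
Ebf1, second start, chr11:44619978-44620277, plus strand: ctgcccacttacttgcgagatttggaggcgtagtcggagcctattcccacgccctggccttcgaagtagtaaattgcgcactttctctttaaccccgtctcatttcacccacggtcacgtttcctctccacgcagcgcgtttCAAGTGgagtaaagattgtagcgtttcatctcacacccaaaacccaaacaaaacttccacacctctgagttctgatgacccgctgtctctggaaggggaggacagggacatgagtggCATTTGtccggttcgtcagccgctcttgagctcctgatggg
Isl1, chr13:116309639-116309938, minus strand: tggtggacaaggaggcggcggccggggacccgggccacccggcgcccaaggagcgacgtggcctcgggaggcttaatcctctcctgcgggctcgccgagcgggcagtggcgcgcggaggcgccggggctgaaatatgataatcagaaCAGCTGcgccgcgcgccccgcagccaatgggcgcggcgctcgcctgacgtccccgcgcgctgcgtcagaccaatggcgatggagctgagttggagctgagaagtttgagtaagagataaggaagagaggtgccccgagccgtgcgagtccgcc
Atoh7, chr10:63099535-63099834, plus strand: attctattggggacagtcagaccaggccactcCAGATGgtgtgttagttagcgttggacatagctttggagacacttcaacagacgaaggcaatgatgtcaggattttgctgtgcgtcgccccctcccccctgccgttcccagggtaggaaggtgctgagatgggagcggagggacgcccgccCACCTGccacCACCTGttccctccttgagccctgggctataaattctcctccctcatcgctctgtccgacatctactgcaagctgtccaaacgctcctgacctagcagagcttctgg

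The Ebf3 window held 1 CCCNNGGG and no CANNTG, and the window at the second Ebf1 start held 2 CANNTG and no CCCNNGGG. The window at the first Ebf1 start, chr11:44617850-44618149, held neither and is not shown. The Isl1 window held 1 CANNTG and the Atoh7 window 3. Over all 32851 promoter windows of that length, 72.3% held a CANNTG and 13.7% a CCCNNGGG. TAATTA, a homeodomain core, was in none of the windows of the members with one, against 5.29% of all windows. A match is a run of letters and no evidence of binding.

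On GRCm38 with GENCODE M21, Atoh7 (ENSMUSG00000036816.4) lies on chromosome 10 from 63099651 to 63101279 on the plus strand. Isl1 (ENSMUSG00000042258.13) lies on chromosome 13 from 116298281 to 116309689 on the minus strand. Ebf1 (ENSMUSG00000057098.14) lies on chromosome 11 from 44617317 to 45008091 on the plus strand. Ebf3 (ENSMUSG00000010476.14) lies on chromosome 7 from 137193673 to 137314445 on the minus strand. Exons of Ebf3 overlap the opposite-strand gene Gm45278 and exons of Ebf2 overlap Gm10860. The libraries do not mark the strand, so reads of these pairs cannot be told apart.

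Levels are given as parts per 1000000 (ppm) of the summed signal of a library, which is scaled by gene length in the deposited tables. Library totals were 14.4 to 29.6 times 1000000 deposited units with knockdown and 17.3 to 26.2 times 1000000 with overexpression. Read numbers were worked out on gene length less 225 to 325 bases, depending on the library. For 1 kb of the length so reduced, 1 ppm corresponded to about 12.7 to 21.1 reads in the knockdown libraries. In those of the other table it corresponded to 11.5 to 16.6 reads. Nmnat1 was at 7.80 ± 0.642 ppm in Nmnat1 knockdown cells and 19.0 ± 1.99 ppm in scramble cells (SD, n = 3 each), and Nmnat2 was at 0.927 ± 0.390 ppm in Nmnat2 knockdown cells and 2.96 ± 2.91 ppm in scramble cells. The Nmnat1 levels did not overlap. Those of Nmnat2 did, at 0.503 to 1.27 ppm against 0.624 to 6.22 ppm, so its knockdown was not clear at the RNA level. Overexpressed Nmnat1 averaged 19325 ppm and Nmnat2 21581 ppm in their groups, against 20.8 and 1.89 ppm in empty-vector cells. Each group also had more of the other gene, with no overlap with the empty vector. Nmnat1 averaged 42.4 ppm in Nmnat2 overexpression cells and Nmnat2 5.23 ppm in Nmnat1 overexpression cells. Some libraries stood apart. On the first principal component of the knockdown table, N2_2, an Nmnat2 knockdown library, lay at 129 and the other 8 lay between -31.2 and -5.83. The overexpression libraries numbered 1 (N1_1, N2_1 and v1) lay at 33.9, 91.4 and 24.5 on the first component of their table, and the other 6 between -50.0 and -4.14. Counts of called factors are given below with and without N2_2 or the 3 libraries numbered 1. Such counts are also given for some gene lists and comparisons, whereas the rod, bipolar, and endothelial and pericyte lists have summed levels only. The titles of 1 Nmnat2 knockdown sample and of the Nmnat2 overexpression sample N2_3 name Nmnat3, whereas their other labels name Nmnat2, which was followed. The labels do not say whether the libraries of a group came from separate cultures or animals. The p-values therefore measure a spread between libraries that may be technical.

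Markers of mature ganglion cells ranged widely in level. Crx, a photoreceptor factor, was at 352 to 718 ppm in the knockdown libraries. Slc17a6, the vesicular glutamate transporter of ganglion cells, was at 0.225 to 2.08 ppm and Nefl, a neurofilament, at 0.529 to 2.41 ppm in the same libraries. Nefm, another neurofilament, was at 1.12 to 9.21 ppm, and Thy1, a surface protein of ganglion cells, at 0.521 to 45.2 ppm, with the highest level in a single scramble library. The 30 ganglion cell effectors described below, several of which other neurons also make, summed to 592 to 1311 ppm in the knockdown libraries and 494 to 878 ppm in the overexpression libraries. Pou4f2 stayed under 1 ppm in all 18 libraries, with a highest level of 0.538 ppm in the knockdown table and 0.548 ppm in the overexpression table. Pou4f3 likewise stayed under 1 ppm, and was at 0 in 5 knockdown and 3 overexpression libraries, where 3 reads would have been 0.0681 to 0.125 ppm over the libraries of both tables. The label of ganglion cell fate factors is used of the genes and does not say which of the sorted cells carried their RNA.

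**Figure D1:**
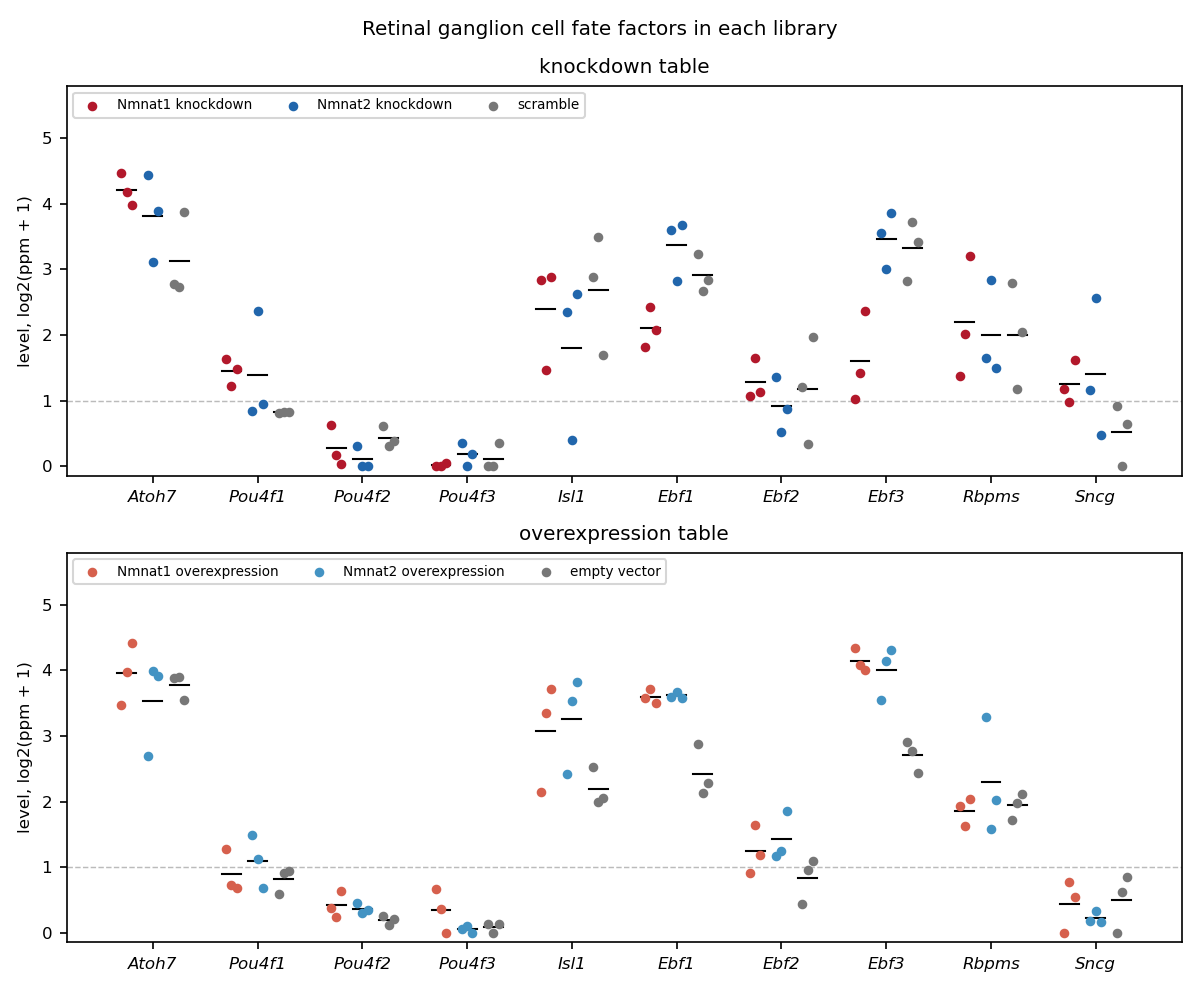
Level of each factor in each library, as log2(ppm + 1) on the vertical axis, in the knockdown table (top) and the overexpression table (bottom). Points are libraries, black bars are group means and the dashed line is 1 ppm, and Ebf1 and Ebf3 stand lower in Nmnat1 knockdown and higher in both overexpression groups than in the control of their table.

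In order of mean level in the knockdown table, Atoh7 was highest at 13.4 ppm, followed by Ebf3 at 7.34, Ebf1 at 6.56, Isl1 at 4.76 and Rbpms at 3.70. Pou4f1 at 1.49, Sncg at 1.37 and Ebf2 at 1.31 followed, and Pou4f2 at 0.221 and Pou4f3 at 0.0790 were last. With overexpression, Atoh7 at 13.1 and Ebf3 at 12.6 ppm led, ahead of Ebf1 at 8.98, Isl1 at 7.08 and Rbpms at 3.38. The library ranges of neighbouring factors overlapped in both orders. Atoh7 did not lead within every group: mean Ebf3 and Atoh7 levels were 16.8 and 15.1 ppm in Nmnat1 overexpression, 15.4 and 11.5 ppm in Nmnat2 overexpression, and 9.32 and 8.39 ppm in scramble cells. The values stood for 62 to 1116 reads of Ebf3, 183 to 1176 of Ebf1, 95 to 438 of Atoh7 and 10 to 301 of Isl1 in the knockdown libraries, counted from the steps of 1 read.

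Genes that reached 1 ppm in 3 or more of a table's 9 libraries were tested with limma on log2(ppm + 1), with Benjamini-Hochberg adjustment over all tested genes. That left 8 of the 10 factors in the knockdown table, without Pou4f2 and Pou4f3, and 7 in the overexpression table, where Sncg also fell below the filter. At an adjusted p under 0.05, 0 of 8 factors were called in Nmnat1 knockdown against scramble, where 0.144% of all tested genes were, and 3 had an unadjusted p under 0.05, against 10.5% of all genes. The groups of 5 of the 8 did not overlap, Atoh7, Pou4f1 and Sncg above and Ebf1 and Ebf3 below, against 24.8% of all genes. No scramble library reached 1 ppm for Pou4f1 or Sncg. Both passed the filter through knockdown libraries alone, so their place above scramble is not independent of the filter. In Nmnat2 knockdown against scramble, 0 of 8 were called, against 0.436% of all genes, and 0 had an unadjusted p under 0.05, against 16.8%. In Nmnat1 overexpression against the empty vector, 0 of 7 were called, against 0.121% of all genes, and 2 had an unadjusted p under 0.05, against 9.57%. In Nmnat2 overexpression against the empty vector, 1 of 7 was called, Ebf3, against 0.55% of all genes, and 3 had an unadjusted p under 0.05, against 10.3%. The median log2 fold change of the tested factors was 0.15, 0.30, 0.41 and 0.60 in Nmnat1 knockdown, Nmnat2 knockdown, Nmnat1 overexpression and Nmnat2 overexpression, and that of all genes -0.00, -0.23, -0.04 and 0.06.

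**Figure D2:**
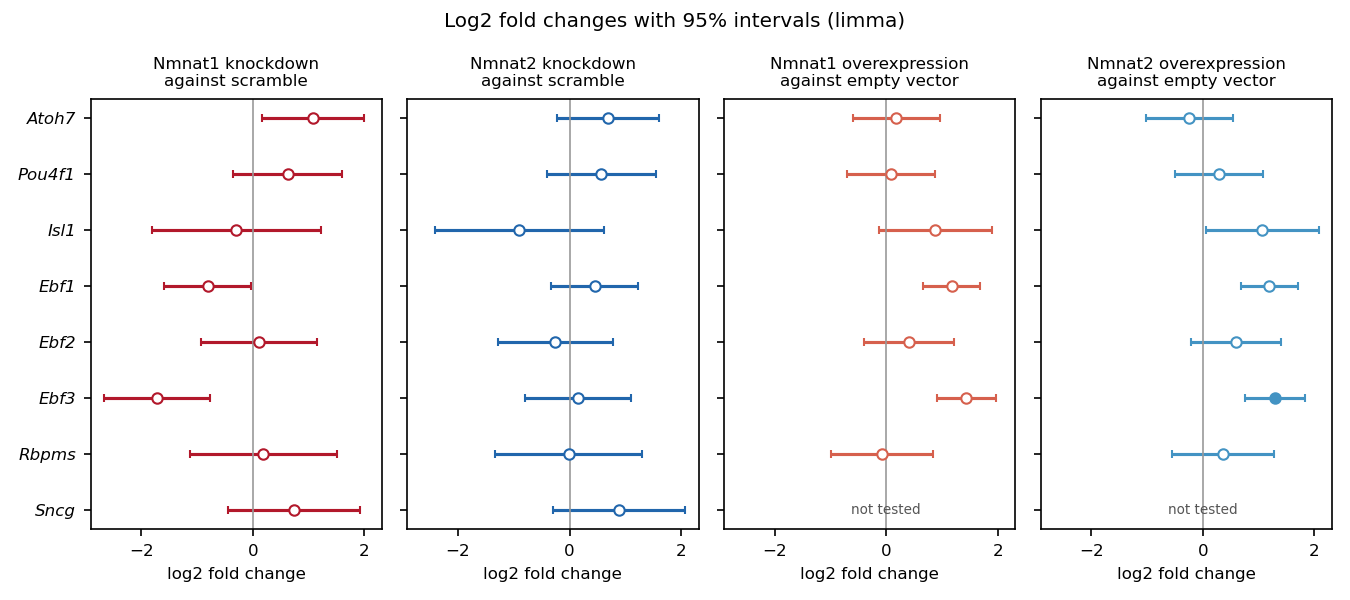
Log2 fold change on the log2(ppm + 1) scale (horizontal axis) of each tested factor in the 4 comparisons with a control, with limma's 95% interval as bars. The filled point is Ebf3 in Nmnat2 overexpression, the value past an adjusted p of 0.05, and the intervals of Ebf1 and Ebf3 lie below 0 in Nmnat1 knockdown and above 0 in both overexpression groups.

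Atoh7, the competence factor, was at 21.2, 17.1 and 14.8 ppm in Nmnat1 knockdown cells, against 5.83, 5.65 and 13.7 ppm in scramble cells. The 3 knockdown libraries were all above the 3 scramble libraries, but the third scramble library came close to the lowest knockdown library. The log2 fold change was 1.09 ± 0.41 (SE), which did not pass limma's threshold (adjusted p = 0.393, or 0.0724 without library N2_2 of the same fit). Atoh7 was at 20.8, 7.65 and 13.9 ppm in Nmnat2 knockdown cells, which overlapped the scramble libraries. There the log2 fold change was 0.69 ± 0.41 (adjusted p = 0.432 by limma), and 1.04 ± 0.36 without N2_2 (adjusted p = 0.0845), where 15.0% of all genes and 0 of the 8 factors were called. With array weights, which give less weight to libraries that scatter more, Atoh7 was called in Nmnat2 knockdown at an adjusted p of 0.0466. Such weights can raise the number of calls over all genes. In Nmnat1 knockdown they called 868 of 22233 tested genes, against 32 in the reported fit. The number for Nmnat2 knockdown under these weights is not given here, so the Atoh7 call lacks the background of its own comparison. In the overexpression table Atoh7 was at 10.1, 14.8 and 20.3 ppm in Nmnat1 overexpression cells, 5.49, 14.9 and 14.0 ppm in Nmnat2 overexpression cells and 13.7, 14.0 and 10.7 ppm in empty-vector cells. The 3 groups overlapped, with log2 fold changes of 0.18 ± 0.35 for Nmnat1 and -0.24 ± 0.35 for Nmnat2 overexpression, whose 95% intervals ran from -0.60 to 0.96 and from -1.02 to 0.54.

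Isl1, the LIM-homeodomain regulator, scattered widely within groups. In the overexpression table it was at 3.40, 9.18 and 12.2 ppm in Nmnat1 overexpression cells, 4.33, 10.5 and 13.2 ppm in Nmnat2 overexpression cells and 4.76, 2.97 and 3.16 ppm in empty-vector cells. The libraries numbered 2 and 3 of both overexpression groups were above all empty-vector libraries, whereas the 2 overexpression libraries numbered 1 were within their range. The log2 fold changes were 0.88 ± 0.46 for Nmnat1 and 1.07 ± 0.46 for Nmnat2 overexpression and did not pass limma's threshold (adjusted p = 0.605 and 0.449). Without the 3 libraries numbered 1 they were 1.51 ± 0.22 and 1.65 ± 0.22 and passed it (adjusted p = 0.0104 and 0.00812). In that fit 8.04% and 5.9% of all genes were called. In the knockdown table Isl1 was at 6.17, 1.76 and 6.36 ppm in Nmnat1 knockdown cells, 4.13, 0.320 and 5.17 ppm in Nmnat2 knockdown cells and 6.36, 10.3 and 2.24 ppm in scramble cells. All groups overlapped there, and the lowest library was N2_2. The log2 fold change in Nmnat2 knockdown was -0.90 ± 0.68, and -0.20 ± 0.58 without N2_2 (adjusted p = 0.544 and 0.849 by limma).

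The POU-domain factors were low. Pou4f1 was at 2.10, 1.33 and 1.79 ppm in Nmnat1 knockdown cells, 0.793, 4.15 and 0.936 ppm in Nmnat2 knockdown cells and 0.750, 0.763 and 0.779 ppm in scramble cells. Both knockdown groups lay wholly above the scramble libraries, as did 4.73% of all genes in Nmnat2 knockdown, but library N2_2 alone carried most of the excess in Nmnat2 knockdown. Pou4f1 passed the filter of that table only through knockdown libraries. The log2 fold changes were 0.63 ± 0.44 and 0.57 ± 0.44 (adjusted p = 0.661 and 0.556 by limma), and the second was 0.08 ± 0.38 without N2_2. The 3 overexpression-table groups overlapped, between 0.500 and 1.81 ppm. Pou4f2 was at 0.538, 0.122 and 0.0215 ppm in Nmnat1 knockdown cells, 0.239, 0 and 0 ppm in Nmnat2 knockdown cells and 0.530, 0.239 and 0.297 ppm in scramble cells. These values stood for at most 33 reads, so that only large differences could be seen. Pou4f2 was at 0.181 to 0.548 ppm with Nmnat1, 0.227 to 0.370 ppm with Nmnat2 and 0.0830 to 0.194 ppm with the empty vector, at 4 to 24 reads. Pou4f3 was at most 0.276 ppm in the knockdown table, or about 9 reads, and 0.582 ppm in the overexpression table, or about 14.

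Ebf3 and Ebf1 had their lowest group means of the knockdown table in Nmnat1 knockdown cells, and in the other table both overexpression groups had higher means than empty-vector cells. Ebf3 was at 1.03, 1.67 and 4.17 ppm in Nmnat1 knockdown cells, against 6.05, 12.2 and 9.74 ppm in scramble cells. Every knockdown library was below every scramble library, and the mean was 4.07-fold lower (2.29 ± 1.66 against 9.32 ± 3.07 ppm, SD, n = 3 each). The log2 fold change of -1.72 ± 0.43 did not pass limma's threshold with all libraries (adjusted p = 0.182). Without N2_2, which belongs to neither group and enters through the shared estimate of the spread, the adjusted p was 0.0279, in a fit that called 8.11% of all genes. Ebf1 was at 2.53, 4.36 and 3.20 ppm in Nmnat1 knockdown cells, against 8.39, 5.37 and 6.17 ppm in scramble cells. Its groups did not overlap either, and the log2 fold change of -0.81 ± 0.35 did not pass limma's threshold (adjusted p = 0.456, or 0.123 without N2_2). An exact permutation test of 3 against 3 libraries cannot go below p = 0.1, the value that Ebf1 and Ebf3 both reached.

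In Nmnat2 knockdown cells Ebf3 was at 10.7, 7.00 and 13.5 ppm and Ebf1 at 11.1, 6.07 and 11.8 ppm. Ebf3 overlapped the scramble libraries and had a log2 fold change of 0.15 ± 0.43, with a 95% interval from -0.81 to 1.11. Ebf1 was above all scramble libraries in N2_1 and N2_3 but not in N2_2, with a log2 fold change of 0.45 ± 0.35 (adjusted p = 0.556 by limma), or 0.72 ± 0.32 without N2_2 (0.165). All genes together had a median log2 fold change of -0.23 in this comparison under ppm scaling and -0.05 under median-of-ratios scaling, and Ebf1 was at 0.66 ± 0.33 under the second (adjusted p = 0.337).

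The knockdowns were also set against each other. In Nmnat1 against Nmnat2 knockdown the log2 fold change was -1.87 ± 0.43 for Ebf3 and -1.26 ± 0.35 for Ebf1, with no overlap between the groups in either, as for 6.37% of all tested genes in that direction. With all libraries 0 of 8 factors passed limma's threshold, against 2.06% of all genes, with adjusted p = 0.0584 for Ebf3 and 0.111 for Ebf1; these 2 were the factors with an unadjusted p under 0.05, as were 16.4% of all genes. Median-of-ratios scaling moved the median of all genes to 0.06 from the 0.25 of the ppm scale. Under it both passed, at -2.07 ± 0.41 for Ebf3 (adjusted p = 0.0283 by limma) and -1.47 ± 0.33 for Ebf1 (0.0429). The share of all genes called under that scaling is not given here, so these calls lack a background. Without N2_2 both passed too, at -2.10 ± 0.44 (adjusted p = 0.0111) and -1.54 ± 0.32 (0.0110), where 13.1% of all genes were called.

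In the overexpression table Ebf3 was at 19.4, 16.0 and 15.1 ppm in Nmnat1 overexpression cells, 10.7, 16.7 and 19.0 ppm in Nmnat2 overexpression cells and 6.53, 5.84 and 4.42 ppm in empty-vector cells. All 6 overexpression libraries were above all 3 empty-vector libraries. The mean was 3.00-fold higher with Nmnat1 (16.8 ± 2.27 ppm) and 2.76-fold higher with Nmnat2 (15.4 ± 4.29 ppm) than with the empty vector (5.60 ± 1.08 ppm, SD, n = 3 each). Ebf3 rose in Nmnat2 overexpression by limma (1.30 ± 0.24, adjusted p = 0.0498). In Nmnat1 overexpression the log2 fold change of 1.44 ± 0.24 had an adjusted p of 0.0581. The call with Nmnat2 lay close to the threshold: the adjusted p ran from 0.000746 to 0.227 over 21 alternative processings, 6 of which kept it.

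Ebf1 was at 10.9, 12.2 and 10.3 ppm in Nmnat1 overexpression cells, 11.1, 11.8 and 11.0 ppm in Nmnat2 overexpression cells and 6.32, 3.37 and 3.85 ppm in empty-vector cells. The overexpression libraries lay within a narrow range, and the nearest empty-vector library, v1, was well below it. The mean was 2.47-fold higher with Nmnat1 and 2.50-fold higher with Nmnat2, with log2 fold changes of 1.17 ± 0.23 and 1.19 ± 0.23 (adjusted p = 0.101 and 0.0586 by limma). Without the libraries numbered 1, Ebf3 and Ebf1 passed in both arms: Ebf3 at 1.44 ± 0.18 and 1.63 ± 0.18 (adjusted p = 0.00585 and 0.00442 in Nmnat1 and Nmnat2 overexpression), and Ebf1 at 1.41 ± 0.19 and 1.43 ± 0.19 (0.00761 and 0.00810). The groups of 2 of the 7 tested factors lay wholly above the empty vector with Nmnat1, against 7.74% of all genes, and those of 3 with Nmnat2, against 8.6%. The third was Ebf2, whose lowest Nmnat2 library, at 1.25 ppm, was just above the highest empty-vector library, at 1.13 ppm. The arms share the empty-vector libraries, so their values are not independent of each other. Between the arms, the log2 fold change of Nmnat1 against Nmnat2 overexpression was 0.14 ± 0.24 for Ebf3 and -0.02 ± 0.23 for Ebf1, with 95% intervals from -0.39 to 0.68 and from -0.53 to 0.50. In that comparison 0 of 7 factors and 0.0193% of all genes were called, and 0 of 7 had an unadjusted p under 0.05, against 4.46% of all genes.

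Ebf2, the third early B-cell factor, had a lower mean level than Ebf1 and Ebf3 in both tables. It was at 1.10, 2.15 and 1.18 ppm in Nmnat1 knockdown cells, 1.56, 0.438 and 0.838 ppm in Nmnat2 knockdown cells and 1.31, 0.267 and 2.92 ppm in scramble cells, so that all groups overlapped. Its log2 fold change was 0.11 ± 0.47 in Nmnat1 knockdown, with a 95% interval from -0.93 to 1.15. With overexpression it was at 0.888, 2.11 and 1.26 ppm with Nmnat1, 1.25, 1.36 and 2.64 ppm with Nmnat2 and 0.354, 0.945 and 1.13 ppm with the empty vector. The log2 fold changes were 0.41 ± 0.37 and 0.60 ± 0.37, with intervals that included 0.

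**Figure D3:**
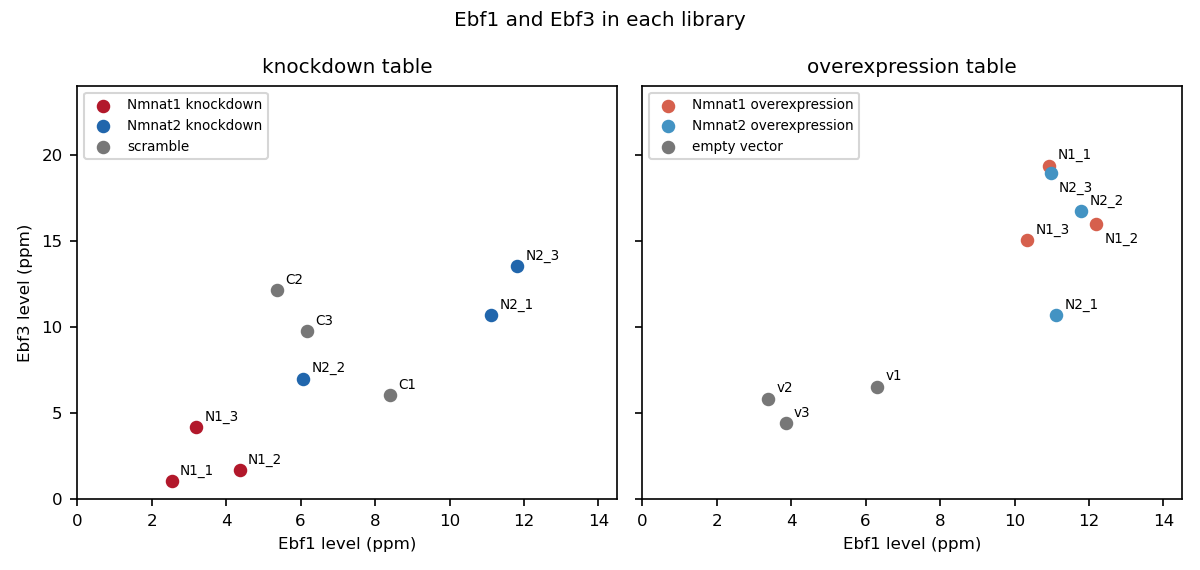
Ebf1 level (horizontal axis, ppm) against Ebf3 level (vertical axis, ppm) in each library of the knockdown table (left) and the overexpression table (right), with the column name beside each point. The Nmnat1 knockdown libraries lie in the lower left corner, and all 6 overexpression libraries lie above and to the right of the 3 empty-vector libraries.

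Across the 9 libraries of a table, log2 levels of Ebf1 and Ebf3 correlated at Pearson's r = 0.779 in the knockdown and 0.914 in the overexpression table, as a description over libraries that include the group differences. Atoh7 and Ebf3 had r = -0.420 and 0.175. Among 11143 genes with sufficient level in both tables, those most like Ebf3, ranked by the smaller of the 2 values, were Lix1 (r = 0.924 and 0.923 in the knockdown and overexpression tables), Prdm13 (0.908 and 0.911) and Gria4 (0.908 and 0.894). Prdm13 encodes a regulator of amacrine cell fate and Gria4 an AMPA-type glutamate receptor subunit. Those most like Ebf1 were Smim18 (0.932 and 0.928), Ier5 (0.924 and 0.925) and Nhlh2 (0.921 and 0.947), the last a bHLH factor of early neurons. Those most like Atoh7 were Cnnm3 (0.893 and 0.894), Slc35a4 (0.851 and 0.887) and Anks1 (0.857 and 0.851).

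Rbpms and Sncg, the markers of mature ganglion cells, gave no call. Rbpms was at 1.58, 3.04 and 8.21 ppm in Nmnat1 knockdown cells, 2.14, 6.12 and 1.82 ppm in Nmnat2 knockdown cells and 5.97, 1.25 and 3.12 ppm in scramble cells. On overexpression Rbpms was at 2.80, 2.08 and 3.10 ppm with Nmnat1, 8.74, 1.99 and 3.08 ppm with Nmnat2 and 2.30, 2.94 and 3.35 ppm with the empty vector. Its groups overlapped in every comparison, and the Nmnat2 libraries that stood apart, N2_2 of the knockdown and N2_1 of the overexpression table, were the highest of their groups. Sncg was at 1.26, 0.964 and 2.08 ppm in Nmnat1 knockdown cells, 1.24, 4.89 and 0.394 ppm in Nmnat2 knockdown cells and 0.886, 0 and 0.564 ppm in scramble cells. The Nmnat1 knockdown libraries were all above the scramble libraries, with a log2 fold change of 0.74 ± 0.53 (adjusted p = 0.670 by limma), at 0 to 40 reads per library over the table. Sncg, like Pou4f1, passed the filter there only through knockdown libraries. In the overexpression table Sncg stayed under 1 ppm, with at most 7 reads.

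**Figure D4:**
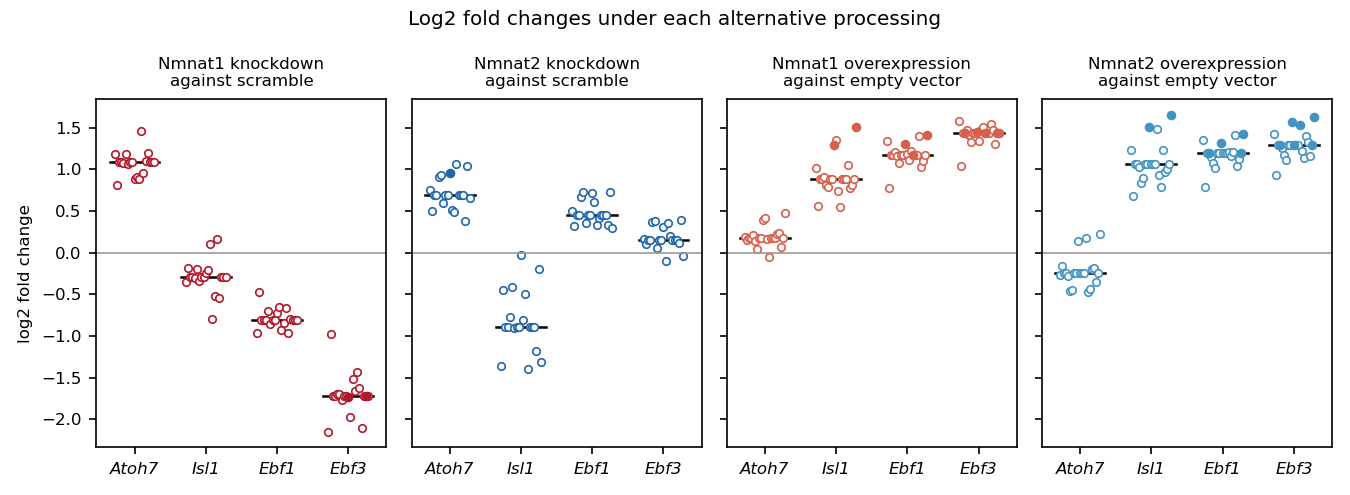
Log2 fold changes (vertical axis) of Atoh7, Isl1, Ebf1 and Ebf3 in the 4 comparisons with a control under each alternative processing, 1 point for each, with filled points at an adjusted p under 0.05 and the reported value as a black bar. Ebf1 and Ebf3 stay below 0 in Nmnat1 knockdown and above 0 in both overexpression groups, whereas the points of Isl1 in Nmnat1 knockdown and of Atoh7 in the overexpression groups fall on both sides of 0.

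Of 31 other regulators of ganglion cells, 27 were tested in the knockdown and 26 in the overexpression table. In Nmnat1 knockdown 0 were called, and those with the smallest p were Nhlh2, at 19.3 ± 1.55 ppm against 75.7 ± 2.47 ppm in scramble cells (log2 fold change -1.92 ± 0.41, adjusted p = 0.128 by limma), and Isl2, a LIM-homeodomain relative of Isl1, at 17.3 ± 5.31 against 5.50 ± 2.46 ppm (1.51 ± 0.41, 0.217). In Nmnat2 knockdown 0 were called, and Foxp2 was at -1.43 ± 0.29 (adjusted p = 0.0640) and Klf7 at 0.71 ± 0.27 (0.225). Nhlh2 rose in Nmnat1 overexpression, to 104 ± 19.9 ppm, and in Nmnat2 overexpression, to 97.4 ± 20.2 ppm, against 30.2 ± 5.78 ppm with the empty vector (1.75 ± 0.20 and 1.65 ± 0.20, adjusted p = 0.0141 and 0.0164 by limma). Sox11, a high-mobility-group factor of early ganglion cells, rose in Nmnat2 overexpression (1.19 ± 0.21, adjusted p = 0.0482). Nhlh2 and Sox11 were also lower in Nmnat1 than in Nmnat2 knockdown (-2.42 ± 0.41 and -1.59 ± 0.26, adjusted p = 0.0168 and 0.0144). Without N2_2, 1 regulator was higher and 5 were lower in Nmnat1 knockdown than in scramble cells, against 8.11% of all genes called, and 7 were higher and 1 lower in Nmnat2 knockdown, against 15.0%. Between the knockdowns 2 were lower in Nmnat1 with all libraries and 8 without N2_2, against 2.06% and 13.1% of all genes called. Without the libraries numbered 1, 6 were higher and 1 lower in Nmnat1 overexpression and 5 higher in Nmnat2 overexpression, against 8.04% and 5.9% of all genes called. The median log2 fold change of the list with all libraries was -0.45, 0.24, 0.21 and 0.24 in Nmnat1 knockdown, Nmnat2 knockdown, Nmnat1 overexpression and Nmnat2 overexpression.

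Of 30 ganglion cell effectors, 25 and 24 were tested. In Nmnat1 knockdown and in Nmnat2 knockdown against scramble 0 were called, with Stmn2 at -1.14 ± 0.29 and Ina at -1.18 ± 0.33 in Nmnat1 knockdown (adjusted p = 0.198 and 0.232 by limma), and Elavl3 at 1.25 ± 0.31 and Elavl4 at 1.47 ± 0.41 in Nmnat2 knockdown (0.105 and 0.124). Ina, which encodes the neurofilament protein alpha-internexin, rose in both overexpression groups, to 41.5 ± 5.72 ppm with Nmnat1 and 37.4 ± 7.47 ppm with Nmnat2, against 18.3 ± 0.790 ppm with the empty vector (adjusted p = 0.0421 and 0.0414). In Nmnat1 against Nmnat2 knockdown 4 effectors were lower, the cytoskeletal and RNA-binding genes Stmn2, Elavl3, Ina and Gap43, with log2 fold changes between -2.08 and -1.62, where 2.06% of all genes were called. Without N2_2, 1 effector was higher and 2 were lower in Nmnat1 knockdown and 8 were higher and 1 lower in Nmnat2 knockdown than in scramble cells, against 8.11% and 15.0% of all genes called. In the same fit 2 were higher and 8 lower in Nmnat1 than in Nmnat2 knockdown, against 13.1%. Without the libraries numbered 1, 6 were higher and 1 lower in Nmnat1 overexpression and 8 higher and 1 lower in Nmnat2 overexpression, against 8.04% and 5.9% of all genes called.

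Of 17 genes that act upstream of or beside Atoh7, 0 were called in the 4 comparisons with a control when all libraries were used. Without N2_2, 7 were lower in Nmnat1 knockdown, and 11 were higher and 1 lower in Nmnat2 knockdown, with median log2 fold changes of -0.84 and 0.85, against -0.84 and 0.40 with all libraries. Of all genes, 8.11% and 15.0% were called in those comparisons without N2_2. In the same fit 16 of the 17 were lower in Nmnat1 than in Nmnat2 knockdown, against 3 with all libraries. Between the knockdowns 13.1% of all genes were called without N2_2, against 2.06% with all libraries. Without the libraries numbered 1, 6 were higher and 1 lower in Nmnat1 overexpression and 6 were higher in Nmnat2 overexpression, against 8.04% and 5.9% of all genes called. With all libraries Ptf1a, Pax6 and Cdkn1c were lower in Nmnat1 than in Nmnat2 knockdown, at -4.24 ± 0.58, -2.10 ± 0.30 and -1.55 ± 0.26 (adjusted p = 0.00621, 0.00726 and 0.0150 by limma). Ptf1a and Pax6, an amacrine determinant and a progenitor and amacrine factor, also stand in the amacrine list.

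**Figure D5:**
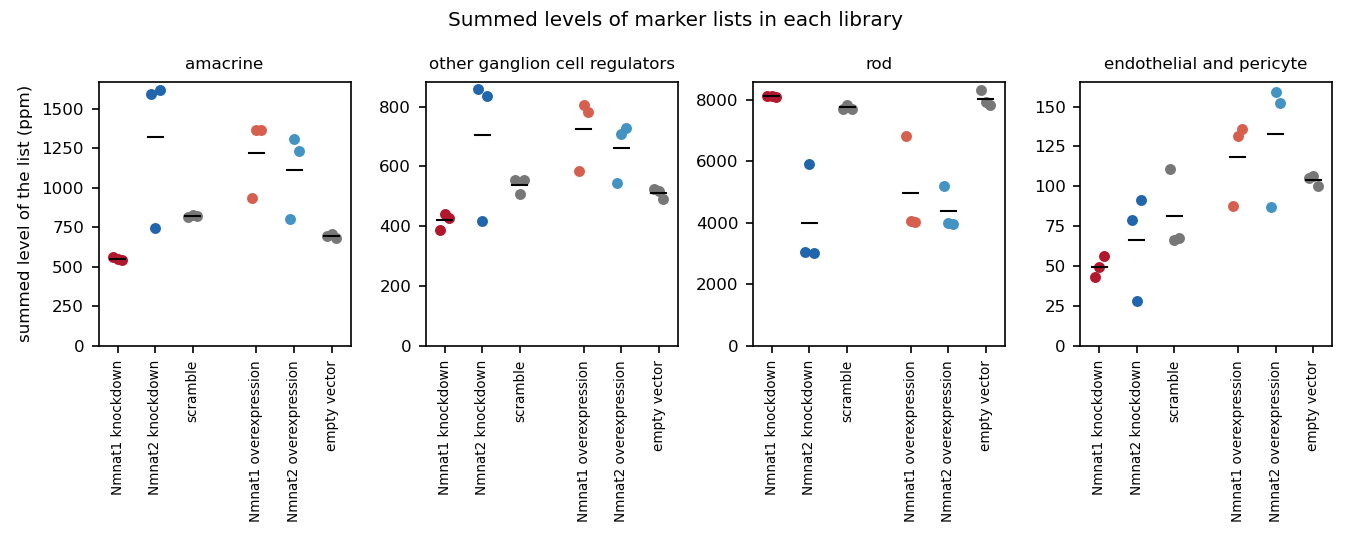
Summed level of 4 marker lists (vertical axes, ppm) in each library, by group, with black bars at group means. The sums of the amacrine and other ganglion cell regulator lists are lower in Nmnat1 knockdown and higher in both overexpression groups than in their controls.

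Marker lists of other cell types also stood at different summed levels in the groups. The 27 amacrine markers summed to 541 to 559 ppm in Nmnat1 knockdown, 747 to 1620 ppm in Nmnat2 knockdown and 817 to 827 ppm in scramble libraries. They summed to 933 to 1368 ppm in Nmnat1 overexpression, 803 to 1311 ppm in Nmnat2 overexpression and 682 to 705 ppm in empty-vector libraries. Of the 24 tested, 1 fell in Nmnat1 knockdown, 1 rose in Nmnat2 knockdown, 0 were called in Nmnat1 overexpression and 2 rose in Nmnat2 overexpression, with median log2 fold changes of -0.68, 0.07, 0.67 and 0.68. Of all genes, 0.144%, 0.436%, 0.121% and 0.55% were called in these comparisons. Without N2_2, 9 fell and 1 rose in Nmnat1 knockdown, against 8.11% of all genes called, and 10 rose and 2 fell in Nmnat2 knockdown, against 15.0%, with a median of 0.66 in the second. Without the libraries numbered 1, 15 rose in Nmnat1 and 14 in Nmnat2 overexpression, against 8.04% and 5.9% of all genes called. Of the defining amacrine markers, Calb2 and Tfap2b were detected in all libraries of the knockdown table. Slc18a3, of cholinergic amacrine cells, was at 0 in 3 of 3 Nmnat1 knockdown, 2 of 3 Nmnat2 knockdown and 1 of 3 scramble libraries. It was low throughout that table, with a highest level of 0.526 ppm in a scramble library. Chat, also of cholinergic amacrine cells, was detected in all libraries of the table. Its levels overlapped between Nmnat1 knockdown and scramble libraries and were below both in Nmnat2 knockdown. A loss of cholinergic amacrine cells was not tested. The 13 endothelial and pericyte markers, a cell type that also makes Ebf1, summed to 43.2 to 56.2 ppm in Nmnat1 knockdown, 28.2 to 91.6 ppm in Nmnat2 knockdown and 66.0 to 111 ppm in scramble libraries, and to 87.5 to 136 ppm with Nmnat1, 87.0 to 159 ppm with Nmnat2 and 100 to 106 ppm with the empty vector. The 14 rod markers summed to 8098 to 8129 ppm in Nmnat1 knockdown, 3019 to 5897 ppm in Nmnat2 knockdown and 7689 to 7840 ppm in scramble libraries. They summed to 4007 to 6827 ppm in Nmnat1 overexpression and 3952 to 5197 ppm in Nmnat2 overexpression, against 7829 to 8327 ppm in empty-vector libraries. The 18 bipolar markers, among them Isl1, summed to 3592 to 3798 ppm in Nmnat1 knockdown, 2486 to 3306 ppm in Nmnat2 knockdown and 3834 to 3930 ppm in scramble libraries. They were at 3762 to 3803 ppm in Nmnat1 overexpression, 3968 to 4068 ppm in Nmnat2 overexpression and 3811 to 4343 ppm in empty-vector libraries.

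The 14 Müller glia markers summed to 3007 to 3158 ppm in Nmnat1 knockdown, 2472 to 4028 ppm in Nmnat2 knockdown and 5274 to 5976 ppm in scramble libraries. Of the 13 tested, 1 fell in Nmnat1 knockdown, or 11 fell and 1 rose without N2_2, against 0.144% and 8.11% of all genes called. With overexpression they were at 5575 to 6515 ppm for Nmnat1, 4087 to 7130 ppm for Nmnat2 and 5724 to 6393 ppm for the empty vector. The 18 progenitor and proliferation markers, with 19 entries because 1 name is repeated, summed to 946 to 1105 ppm in Nmnat1 knockdown. Their sums were 915 to 1400 ppm in Nmnat2 knockdown and 1228 to 1344 ppm in scramble libraries. Of these markers, 0 were called in Nmnat1 knockdown, or 7 lower without N2_2, against 0.144% and 8.11% of all genes called. In the overexpression table they were at 1201 to 1750 ppm for Nmnat1, 882 to 1612 ppm for Nmnat2 and 1233 to 1359 ppm for the empty vector. The sum of the 9 horizontal cell markers was higher in Nmnat1 knockdown, at 2045 to 2100 ppm against 1239 to 1537 ppm in scramble libraries. The 8 tested markers did not move as a set, with a median log2 fold change of 0.06. Of these, 0 were called, or 1 higher and 2 lower without N2_2. The part of these cell types in the levels of Ebf1, Ebf3 and Isl1 was not tested.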

How the data were processed

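Mouse retinas were electroporated, cultured and sorted as described above, and cDNA was made from 1 ng of RNA with SMART-Seq v4, per the labels' protocols. The submitters' processing notes name Salmon 0.11.3, sleuth 0.30.0 and GRCm38.p6 and give no roles. The deposited values are named TPM by the authors, but no column sums to 1000000, and they are used here as a deposited signal that is scaled by length and whose unit is unknown. This replaced the TPM assumed when the design was written. The incomplete last line of each table was left out.

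Values were turned into ppm of their column's sum. Genes that reached 1 ppm in 3 or more of 9 libraries (22233 and 20725) were fitted as log2(ppm + 1) with limma 3.58.1 in R 4.3.3, with the 3 groups of a table in 1 fit, empirical Bayes moderation with a trend, two-sided tests and Benjamini-Hochberg adjustment. Fold changes on this scale understate those of low genes, and no test crosses the tables. Tables were summarised with Python 3.11.15, scipy 1.17.1 and matplotlib 3.10.9. On simulated data, the Nmnat1 knockdown comparison recovered 5% of log2 changes of 1 and 32% of changes of 2 over 22233 genes, and the Nmnat1 overexpression comparison 23% and 70% over 20725 genes. Each gene was drawn independently with the same SD in all 9 libraries. Shifts of a whole library, such as that of N2_2, were not simulated, so recovery in the real libraries can differ.

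In genes of known length, 78.1% to 85.7% of low knockdown values and 81.8% to 85.9% of low overexpression values lay within 0.1 of a whole read, where 20% would by chance. Read numbers are approximate, and no count test was run. Reads bound counting error only.

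The members and gene lists were chosen with earlier results of these data known. Named genes were the 10 factors, Nmnat1 and Nmnat2, the called genes of 3 lists of other ganglion cell regulators, effectors and Atoh7-related genes (at most 4 by smallest p, or the 2 smallest where none was called), and the 3 genes most like each factor whose mean was 5 ppm or more in both tables. Marker genes and Gm names outside this rule were chosen after their values were seen. Knockdown columns are matched to groups and not to single samples. Alternatives covered pseudocounts, filters, scaling, the fit, weights, and libraries left out.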

Additional observations from a re-analysis of the deposited data

How the results depend on the processing

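Ebf3 and Ebf1 kept their direction against the controls under every alternative run, except Ebf3 in Nmnat2 knockdown. The count of factors called moved more. In Nmnat2 overexpression, where it was 1, it was 0 with a pseudocount of 0.1 or 5, without a filter, under median-of-ratios or quantile scaling, on unscaled deposited values (pseudocount 20), with only the 2 groups compared and without a variance trend. It was 2 with a filter at 5 ppm and 3 with array weights or without the 3 libraries numbered 1 (Ebf1, Ebf3 and Isl1). Leaving out 1 library gave 0 to 1, and 0 without N1_2, N1_3, N2_2, N2_3, v1, v2 or v3. In Nmnat1 overexpression, where it was 0, it was 1 with a filter at 5 ppm, 3 with array weights or without the libraries numbered 1, and 0 to 2 leaving out 1 library, with 2 (Ebf1 and Ebf3) without N2_1. In Nmnat1 knockdown it was 1 (Ebf3) with array weights, in a fit that called 868 of all genes, and 0 to 1 leaving out 1 library. In Nmnat2 knockdown it was 1 (Atoh7) with array weights, whose number of calls over all genes in that comparison is not given here. In Nmnat1 against Nmnat2 knockdown it was 1 (Ebf3) with a filter at 5 ppm or quantile scaling, 2 with array weights or median-of-ratios scaling, and 0 to 2 leaving out 1 library, with 2 without N2_2. The cause was not tested.

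No paired analysis was possible for the knockdown table because its columns carry no number matched to the labels. In the overexpression table, deviations of same-numbered libraries from their group means correlated at 0.0271 to 0.461, with 7 of 9 pairs over 0.1. A library was closest to its own number in 12 of 18 comparisons. The reported fits did not take the numbers as pairs, and whether same-numbered libraries share a batch was not tested. With the replicate block, 1 factor (Ebf3) was called in Nmnat1 and 2 (Ebf1 and Ebf3) in Nmnat2 overexpression, among 187 and 269 genes, against 25 and 114 without it.

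Reversed signs were all of log2 fold changes that were not called. With array weights Ebf2 was at -0.012 in Nmnat1 knockdown, Pou4f1 at -0.11 in Nmnat1 overexpression, Rbpms at -0.10 and Atoh7 at 0.14 in Nmnat2 overexpression, and Ebf3 at -0.12 between the overexpression arms. Without the libraries numbered 1, Pou4f1 was at -0.22 and -0.030 in Nmnat1 and Nmnat2 overexpression, Rbpms at -0.24 and Atoh7 at 0.23 in Nmnat2 overexpression, and Ebf3 at -0.19 between the arms. Rbpms in Nmnat2 knockdown was at 0.0055 with a pseudocount of 0.1, 0.18 with median-of-ratios and 0.51 with quantile scaling, and Ebf2 there at 0.17 with quantile scaling. With quantile scaling Rbpms was at 0.0044 in Nmnat1 overexpression. Between the overexpression arms Ebf1 was at 0.058 with median-of-ratios scaling, 0.084 with quantile scaling and 0.060 on the deposited values. Leaving out 1 library gave, in Nmnat1 knockdown, -0.30 to 0.51 for Ebf2, -0.31 to 0.60 for Rbpms and -0.80 to 0.17 for Isl1. It gave, in Nmnat2 knockdown, -0.10 to 0.39 for Ebf3, -0.67 to 0.15 for Ebf2 and -0.43 to 0.39 for Rbpms. It gave, in Nmnat1 overexpression, -0.19 to 0.040 for Rbpms, -0.054 to 0.42 for Atoh7 and -0.11 to 0.19 for Pou4f1. It gave, in Nmnat2 overexpression, -0.13 to 0.72 for Rbpms and -0.47 to 0.17 for Atoh7, and between the arms -0.086 to 0.30 for Ebf3 and -0.078 to 0.030 for Ebf1.

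Over all genes, the number called ranged over the alternatives from 0 to 1802 in Nmnat1 knockdown (32 as reported), 0 to 5101 in Nmnat2 knockdown (97), 17 to 6072 between the knockdowns (458), 1 to 1666 in Nmnat1 overexpression (25), 3 to 1251 in Nmnat2 overexpression (114) and 2 to 38 between the overexpression arms (4). Low reads limited Pou4f2, Pou4f3 and Sncg.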
